A study of Mus musculus with 6 samples.

Results

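Cytoplasmic ribosomal protein genes were taken from the UMI tables of 6 mouse lung tumors as the protein-coding rows whose symbol begins with Rpl or Rps and a number, with the usual paralog endings, plus Rplp0, Rplp1, Rplp2 and Rpsa. This gave 82 genes of 31130 in the tables, 31 for the small (40S) and 51 for the large (60S) subunit, on 19 chromosomes. All 6 female C57BL/6 mice, 6 to 8 weeks old, received Lewis lung carcinoma (LLC) cells labelled with GFP into the left lung on day 14, and tumor tissue was taken on day 21. The 3 IP+LC mice had been given bleomycin, which injures the lung, at 2.0 mg/kg by oropharyngeal aspiration on day 0, and the 3 LC mice carried the LLC cells alone. LLC is a single mouse line grown in mice of its own strain, and the tissue also holds host cells, so fewer cells of a type and less RNA per cell cannot be told apart in any value given here. Each library counted 3′ ends of polyadenylated transcripts, 1 UMI for a molecule, and held between 592733 and 1631066 UMIs.

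The cytoplasmic ribosome consists of a small subunit, which reads the mRNA, and a large subunit, which joins the amino acids. Each subunit holds 1 copy of most of its proteins, and the stalk proteins Rplp1 and Rplp2 sit on the large subunit through Rplp0. Ribosomal protein mRNAs mostly begin with a cytosine in a run of pyrimidines, the terminal oligopyrimidine (TOP) motif, through which mTOR and Larp1 set their translation and stability. Growing and dividing cells hold many of these mRNAs. A few members have paralogs that can take their place in the ribosome, such as Rps27l for Rps27, Rpl22l1 for Rpl22, Rpl39l for Rpl39 and Rpl3l for Rpl3.

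The rule left out, among others, Rps3a1 and Fau, which also code for ribosomal proteins, and Rack1, which binds the small subunit. Of the 82 members, 79 passed the filter on low counts and 73 had at least 100 UMIs in every tumor. The others were Rpl24, with 0, 1 and 2 UMIs in the LC tumors and 4, 5 and 1 in the IP+LC tumors, Rpl39l, with 1, 0 and 0 against 2, 2 and 0, and Rpl3l, with 0, 0 and 3 against 0, 0 and 0. Rpl3l and Rpl39l are paralogs known from muscle and testis. Among all genes ranked by mean UMIs per 1000000 UMIs of the whole library, 38 of the first 100 were members. CPM values of single genes are given per 1000000 UMIs of the tested genes after TMM scaling, which sets the libraries to a common level. Member transcripts were short, with a median of 640.5 nucleotides against 1793 for all protein-coding genes.

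Most members have processed copies elsewhere in the genome, which bears on what a row can count. In GENCODE transcripts, 78 of 82 members shared at least 81 nucleotides, the length of the insert read, at 95% identity or more with another gene, and for 65 of them the shared part covered more than 50% of the transcript. Copies in the tables had more UMIs than the member itself for Rpl10a, Rpl13a and Rpl23a. A copy had to match at least 80% of a transcript of the member, so genes that share less were not counted. Rpl21 matched 63 other genes and its 3′ end was fully shared, but it had no copy by this rule. Reads from a member and a near-identical copy can be split between rows, so values of single members are uncertain by that much, among them those of Rpl10a, Rpl13a and Rpl23a. Rpl24, nearly without UMIs, shared 83.5% of its transcript with 5 other genes, and how reads that match several genes were counted is not given in the sources used here. Rps27l, Rpl3l and Rpl39l were among the members with no match of this kind.

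The start regions of the members whose level the comparisons below turn on were read from RefSeq (GRCm38.p6), where 62 of 82 members had an entry. Each run gives 70 bases before and 30 after an annotated start, 5′ to 3′ on the gene's strand, and capitals mark CTTTC as written, a C followed by pyrimidines as in a TOP start, or CGGAAG on either strand, the core of an ETS factor site. The strands and positions are Rps27 on the minus strand at chr3:90213619-90213718, Rps27l on the plus strand at chr9:66946016-66946115 (1 of 2 starts listed), Rpl22l1 on the plus strand at chr3:28805438-28805537, Rps15 on the plus strand at chr10:80292361-80292460, Rpl7l1 on the minus strand at chr17:46782627-46782726 and Rps2 on the plus strand at chr17:24719993-24720092.
Rps27: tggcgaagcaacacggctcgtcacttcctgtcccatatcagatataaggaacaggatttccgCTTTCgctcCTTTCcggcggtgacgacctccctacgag
Rps27l: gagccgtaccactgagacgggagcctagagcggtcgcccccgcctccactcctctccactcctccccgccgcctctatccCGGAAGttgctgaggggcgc
Rpl22l1: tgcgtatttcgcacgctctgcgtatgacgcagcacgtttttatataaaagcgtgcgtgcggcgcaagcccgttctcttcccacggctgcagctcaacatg
Rps15: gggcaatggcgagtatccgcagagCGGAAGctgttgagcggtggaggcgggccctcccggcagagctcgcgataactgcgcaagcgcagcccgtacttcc
Rpl7l1: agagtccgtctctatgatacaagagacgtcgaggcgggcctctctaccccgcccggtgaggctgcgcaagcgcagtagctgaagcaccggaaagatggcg
Rps2: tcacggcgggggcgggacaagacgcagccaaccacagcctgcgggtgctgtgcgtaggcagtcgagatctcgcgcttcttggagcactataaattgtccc
Over the 62 members with an entry, CTTTC stood within 20 bases before to 30 after the start, on the sense strand, in 35.5%, against 7.66% of all 27025 genes in the table. CGGAAG stood on either strand within 250 bases before to 50 after the start in 67.7% of members and 18.8% of all genes, and TATAAA, the TATA box, in 11.3% and 15.7%. CTTTC can share its last base with the first of CGGAAG or of its reverse strand, and TATAAA overlaps neither. These are matches of letters and no measure of binding.

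The question of the first comparison was whether ribosomal protein mRNAs took a larger or smaller part of the RNA in tumors that grew in bleomycin-injured lungs. Members held 10.5%, 6.10% and 5.84% of all UMIs in LC replicates 1, 2 and 3, and 7.58%, 7.87% and 7.67% in the IP+LC tumors. The means were 7.48% ± 2.63 (SD, n = 3) and 7.71% ± 0.150 (SD, n = 3), so that they differed by less than the spread in LC and the groups overlapped. The overlap came from LC replicate 1 alone, the shallowest library, and both other LC tumors lay below all IP+LC tumors, by 1.74 percentage points in the mean. For counting error, the 95% binomial interval (Wilson) of LC replicate 1 was 10.4% to 10.6%, and that of LC replicate 3 was 5.80% to 5.87%. Because the share is a summary over chosen genes, no p was computed, and 3 against 3 tumors could not give an exact permutation p below 0.1.

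**Figure D1:**
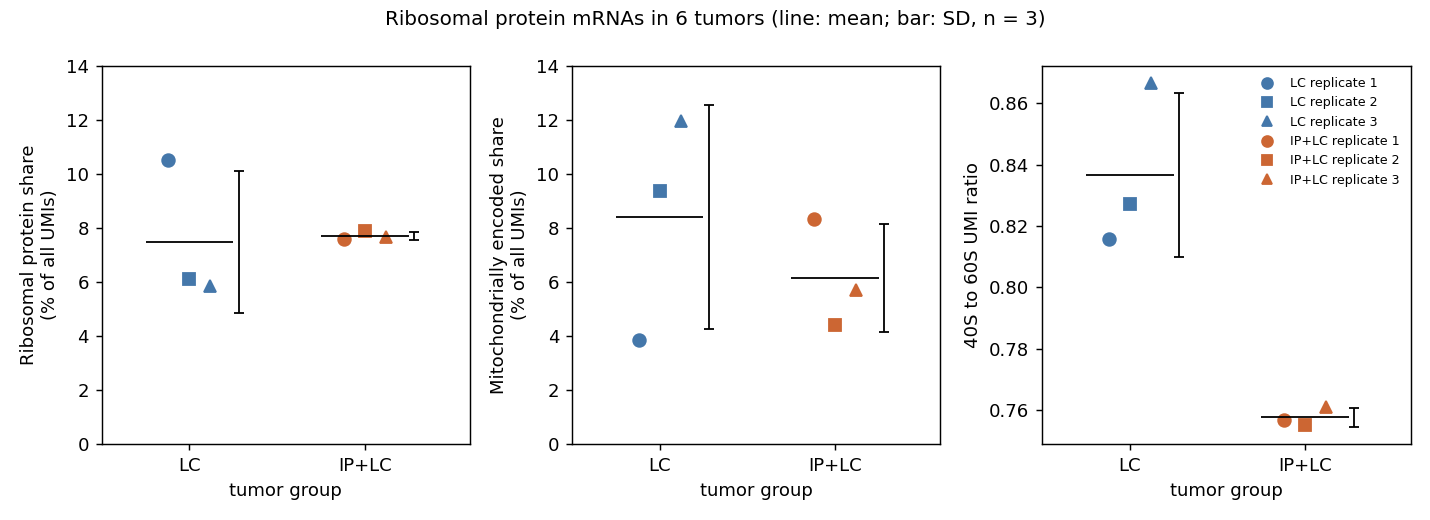
Share of all UMIs held by the 82 ribosomal protein genes, share of mitochondrially encoded genes and ratio of 40S to 60S UMIs in each tumor, with the group mean (line) and SD (bar, n = 3), and the ratio axis does not start at 0. LC replicate 1 lies above the IP+LC tumors in the first panel at 10.5%, and the groups do not overlap in the third panel.

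Other measures moved with the share among the LC tumors. Mitochondrially encoded genes held 3.84%, 9.38% and 12.0% of UMIs in LC replicates 1 to 3 and 8.32%, 4.40% and 5.69% in the IP+LC tumors. Among nuclear protein-coding UMIs, members held 11.2%, 6.97% and 6.98% in LC and 8.54%, 8.54% and 8.43% in IP+LC, so LC replicate 1 also stood apart with mitochondrial RNA left out. The summed CPM (here per 1000000 UMIs of the whole library, without TMM scaling) of 5 proliferation markers (Mki67, Top2a, Ccnb1, Birc5 and Cdk1) ranged from 84.8 to 457 in LC, with LC replicate 1 the highest, and from 857 to 998 in IP+LC, and 4 of the 5 rose. The summed CPM of 5 type 2 alveolar markers ranged from 33101 to 36446 in LC and from 6119 to 11099 in IP+LC, and 4 of 5 fell. All 4 tested markers fell in each of the airway list (39280 to 47884 summed CPM in LC and 3214 to 7005 in IP+LC), the endothelial list (773 to 1335 and 314 to 376), the B cell list (192 to 262 and 35.0 to 141) and the erythroid list (1707 to 6457 and 789 to 2209). All 4 tested of 5 cardiac markers fell (582 to 1297 and 121 to 291), as did 3 of 4 neutrophil markers (768 to 1640 and 135 to 310). Of 5 macrophage markers 2 rose and 1 fell, of 5 fibroblast markers 2 rose and 2 fell, and no gene of any list was at 0 in all 6 tumors. Among the LC tumors, LC replicate 1 had the lowest sum of the type 2 alveolar (33101), endothelial (773), B cell (192), erythroid (1707), cardiac (582), neutrophil (768) and fibroblast (1442) markers and the highest of the macrophage markers (14155). Its airway sum of 45137 lay between those of the other LC tumors. So did its T cell (79.3) and skeletal muscle (25.3) sums. Of 4 T cell markers 0 were called, and of 4 skeletal muscle markers only 1 was tested, which fell. The part of these cell types in the ribosomal protein values was not tested.

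Gene by gene, few members differed between the groups. Of the 79 tested members, 1 rose and 5 fell in IP+LC at the limit that the study set for differentially expressed genes (adjusted p below 0.1, edgeR quasi-likelihood test with Benjamini-Hochberg adjustment over 11240 genes), where 36.4% of all tested genes were called, 16.8% higher and 19.6% lower. The median log2 fold change of the members was -0.07, against 0.02 for all tested genes. The groups did not overlap in CPM for 3 members that were higher and 13 that were lower in IP+LC, while 43.1% of all genes did not overlap (21.6% higher and 21.5% lower). Per UMIs of the whole library, without TMM scaling, the members without overlap were 6 higher and 7 lower, and 44.9% of all genes did not overlap. Without LC replicate 1, in which 71 of the 79 members had their highest CPM of all 6 tumors, 31 members were called higher and 7 lower, the median was 0.18, and 57.0% of all genes were called, 28.3% higher and 28.7% lower. The count of higher members thus rested on LC replicate 1. With each library's trend with transcript length and GC content removed, 9 members were called higher and 6 lower, and 39.1% of all genes were called. With any of the 3 IP+LC tumors left out, 0 were called higher and 2 lower (19.2% to 26.7% of all genes), and with LC replicate 2 or 3 left out, 0 and 5 (22.4% and 26.4%).

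**Figure D2:**
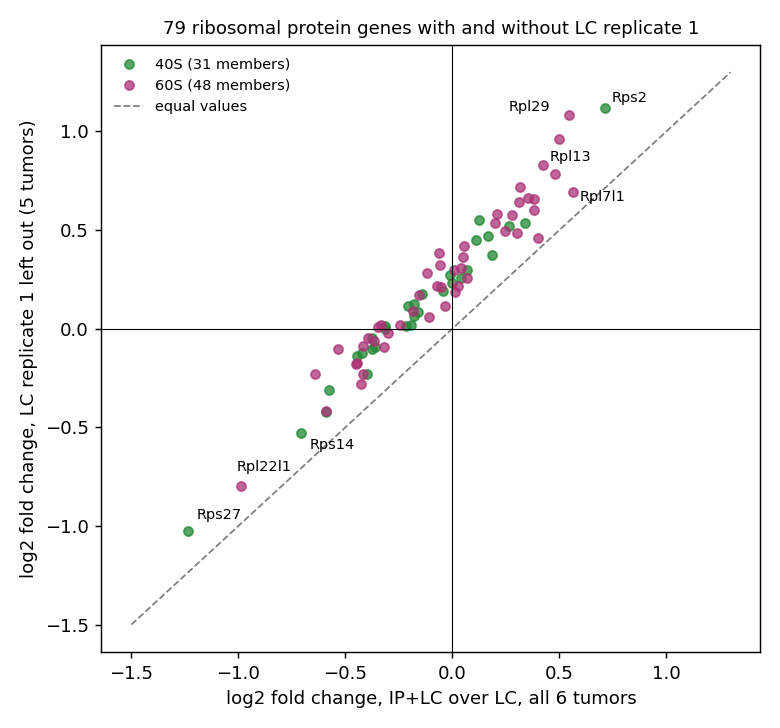
Log2 fold change of each of the 79 tested members, IP+LC over LC, in all 6 tumors (x axis) and with LC replicate 1 left out (y axis), coloured by subunit. All 79 points lie above the line of equal values, the median going from -0.07 to 0.18.

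The member that fell most was Rps27, a small-subunit protein with a zinc finger (ENSMUSG00000090733, chromosome 3, 90212522 to 90213651, GRCm38). Rps27 had 1219, 758 and 925 CPM in the LC tumors and 389, 397 and 444 CPM in the IP+LC tumors. Every IP+LC tumor lay below every LC tumor. Rps27 fell by 1.24 ± 0.23 (SE) on the log2 scale (adjusted p = 0.00580), and it was called lower in all 19 alternative fits. Its near-identical copy Rps27rt, the only gene to match at least 80% of the Rps27 transcript, had 1054 UMIs in all tumors against 4595 for Rps27. Rps27rt fell as well (adjusted p = 0.00737), and relative to the summed UMIs of the members it fell by 1.03 (adjusted p = 0.0175). With the copy's UMIs added, Rps27 fell by 1.21 (adjusted p = 0.00623).

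Rpl22l1, the paralog of the large-subunit protein Rpl22 (ENSMUSG00000039221, chromosome 3, 28805436 to 28807424), had 124, 71.3 and 104 CPM in LC and 49.3, 52.5 and 47.2 CPM in IP+LC. The groups did not overlap, and Rpl22l1 fell by 0.99 ± 0.24 (adjusted p = 0.0169), which also held in all 19 alternative fits. Rpl22 itself had 997, 586 and 654 CPM in LC and 526, 541 and 565 CPM in IP+LC, and it was not called (log2 fold change -0.45, adjusted p = 0.196). Its groups were apart after TMM scaling and overlapped per UMIs of the whole library.

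The other 3 decreases were smaller and depended more on the setting. Rps14, a small-subunit protein of the platform, had 3625, 2415 and 2886 CPM in LC and 1824, 1825 and 1813 CPM in IP+LC, and it fell by 0.71 ± 0.23 (adjusted p = 0.0499). Rps15, also of the small subunit (ENSMUSG00000063457, chromosome 10, 80292453 to 80294114), had 1743, 1334 and 1265 CPM in LC and 956, 953 and 977 CPM in IP+LC, and it fell by 0.59 ± 0.21 (adjusted p = 0.0684). Rpl21, of the large subunit (ENSMUSG00000041453, chromosome 5, 146832890 to 146837032), had 1589, 1156 and 1184 CPM in LC and 864, 836 and 906 CPM in IP+LC, and it fell by 0.59 ± 0.21 (adjusted p = 0.0689). In all 3, each IP+LC tumor lay below each LC tumor, and the IP+LC tumors lay closer together than the LC tumors. Over the alternative fits the adjusted p went up to 0.160 for Rps14, 0.295 for Rps15 and 0.293 for Rpl21. Rpl21 shares its 3′ end with other genes, so its reads can be split between rows.

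The only increase called was that of Rpl7l1, a paralog of Rpl7 (ENSMUSG00000063888, chromosome 17, 46773907 to 46782672). Rpl7l1 had 80.9, 54.1 and 71.2 CPM in LC and 91.4, 97.5 and 113 CPM in IP+LC, so the groups did not overlap, with a rise of 0.56 ± 0.22 (adjusted p = 0.0872). The adjusted p ranged from 0.00390 to 0.290 over the alternative fits. Rps2, a small-subunit protein near the mRNA entry (ENSMUSG00000044533, chromosome 17, 24718116 to 24721929), had the larger fold change but missed the limit. Rps2 had 1610, 903 and 744 CPM in LC and 1803, 1779 and 1745 CPM in IP+LC, a log2 fold change of 0.71 ± 0.30 (adjusted p = 0.107). Without LC replicate 1, the log2 fold change of Rps2 was 1.12 (adjusted p = 1.25e-05).

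Among the 5 most abundant members were Rplp1, Rps14, Rps3 and Rpl13, by UMIs that count 3′ ends and are not divided by length. Rplp1, of the stalk, had 3695, 2195 and 2369 CPM in LC and 2200, 2232 and 2260 CPM in IP+LC. Rps3, a small-subunit protein at the mRNA entry, had 3024, 2050 and 1966 CPM in LC and 2196, 2258 and 2364 CPM in IP+LC. In both, the IP+LC tumors lay within the range of the LC tumors, and LC replicate 1 was the highest of all. Rpl13, of the large subunit, had 2872, 1576 and 1365 CPM in LC and 2613, 2625 and 2559 CPM in IP+LC. Rplp0, the base of the stalk, had 2581, 1521 and 1410 CPM in LC and 2299, 2304 and 2224 CPM in IP+LC. For Rpl13 and Rplp0, LC replicate 1 lay above every IP+LC tumor and the other LC tumors lay below every one, and the log2 fold changes were 0.42 (adjusted p = 0.326) and 0.31 (adjusted p = 0.430).

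Further members with known roles outside the bulk ribosome did not pass the test. Rps19, Rpl5 and Rpl11 are genes mutated in Diamond-Blackfan anemia, and Rpl5 and Rpl11 bind Mdm2 and so link ribosome assembly to p53. Rps19 had 1753, 946 and 1063 CPM in LC and 1024, 981 and 1017 CPM in IP+LC. Rpl5 had 1297, 987 and 921 CPM in LC and 1079, 1101 and 1051 CPM in IP+LC. Rpl11 had 2166, 1255 and 1229 CPM in LC and 1346, 1382 and 1441 CPM in IP+LC. The groups overlapped in all 3, with log2 fold changes of -0.31, 0.01 and -0.16. Rps6, whose protein is phosphorylated downstream of mTOR, had 472, 357 and 335 CPM in LC and 270, 318 and 291 CPM in IP+LC, and it was not called (log2 fold change -0.40, adjusted p = 0.187). Its groups, too, were apart after TMM scaling and overlapped per UMIs of the whole library. Rpsa, which is also known as a laminin receptor, had 1324, 892 and 795 CPM in LC and 1206, 1219 and 1185 CPM in IP+LC (log2 fold change 0.26, adjusted p = 0.446). Rplp2 had 1090, 635 and 602 CPM in LC and 848, 909 and 911 CPM in IP+LC (log2 fold change 0.20, adjusted p = 0.602).

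The members varied far more among the LC tumors than among the IP+LC tumors. The median over members of the SD of log2 CPM was 0.42 in LC and 0.048 in IP+LC (n = 3 each). Most of this was shared by the members, because the SD of the log2 share of the members' own UMIs was 0.11 and 0.046. LC replicate 1 had the highest CPM of the LC tumors for 78 of the 79 members. Pairs of tumors were compared by a chi-square per degree of freedom over the members, which is near 1 for sampling noise alone. It was 1.42 to 2.23 between IP+LC tumors, 5.61 to 7.74 between LC tumors and 23.5 to 53.7 between a tumor of one group and one of the other. Over all genes it was 2.68 to 6.29 between IP+LC tumors, 6.47 to 18.0 between LC tumors and 19.2 to 42.9 between the groups. This chi-square grows with the UMIs per gene, so the values of members and of all genes cannot be set against each other. The labels list the 6 tumors as separate samples, and they were counted so.

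The second comparison set each member against the summed UMIs of all members, and so asked whether the makeup of the ribosomal protein mRNAs differed apart from their total. In this fit, 10 members were higher and 7 lower in IP+LC, while 28.5% of all genes were called on the same scale, 14.8% higher and 13.6% lower. Of the small subunit, 1 of 31 members was higher and 4 lower, and of the large subunit 9 of 48 tested were higher and 3 lower. Of the 79 members, 28 lay higher and 31 lower in IP+LC without overlap on this scale, where 40.7% of all genes did not overlap. Dividing by the member total takes out what the members share, and adds the tumors' differences in that total to all other genes. The values of members and of all genes on this scale are thus not a like comparison. The number of calls depended on which tumor was left out, for the members as for all genes. It was 39 with LC replicate 1 left out, where 56.4% of all genes were called. It was 7 and 5 with LC replicates 2 and 3 left out (13.0% and 14.2% of all genes), and 2, 1 and 2 with IP+LC replicates 1, 2 and 3 left out (8.88%, 5.07% and 11.6%).

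**Figure D3:**
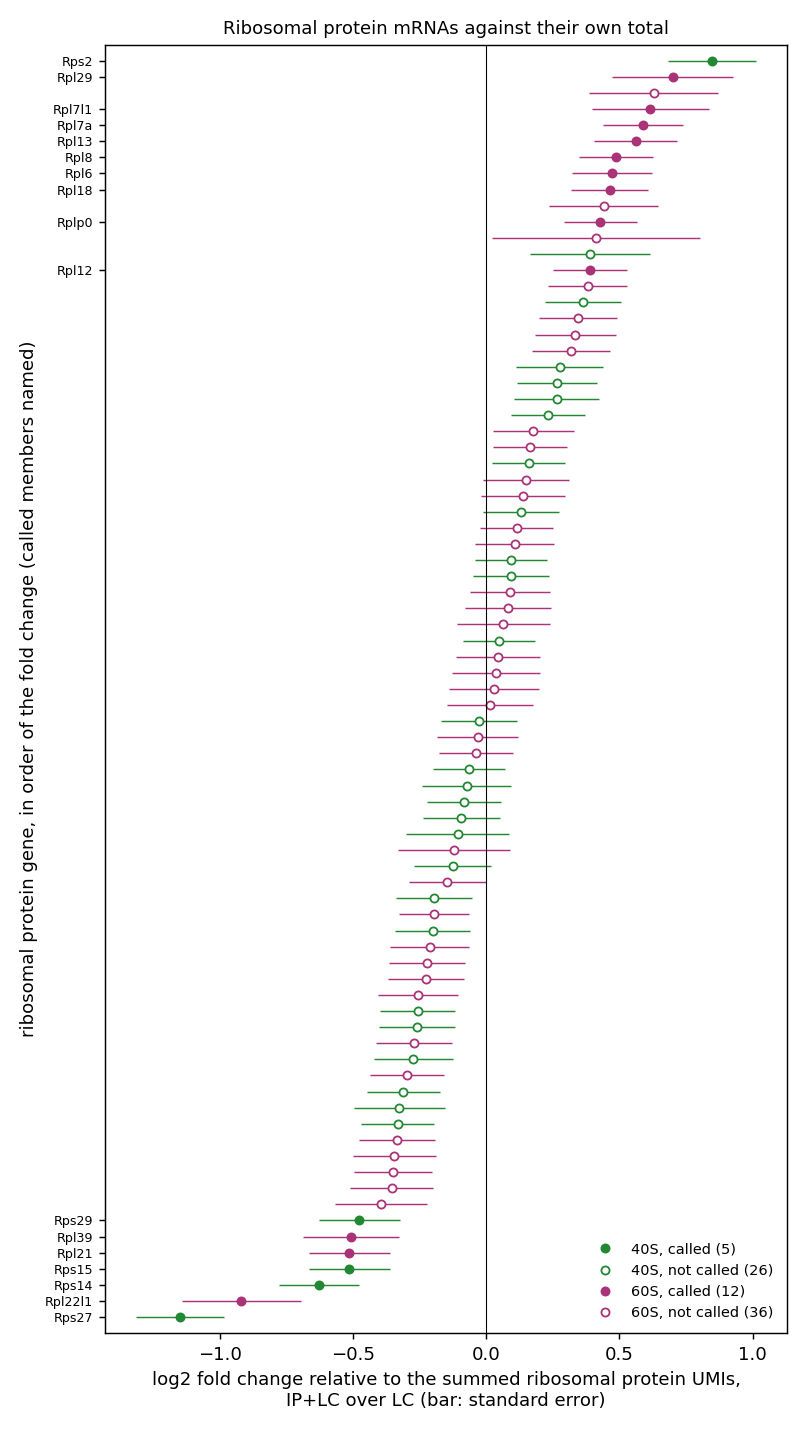
Log2 fold change of the 79 tested members relative to the summed ribosomal protein UMIs, IP+LC over LC, with the standard error, in order of size and coloured by subunit, with the names of called members. Filled points passed the limit on the adjusted p, 10 of them on the right and 7 on the left.

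Rps27 was again the lowest. It made up 114, 115 and 138 of 10000 ribosomal protein UMIs in LC and 52.7, 53.0 and 59.6 in IP+LC, which is 122 ± 13.6 against 55.1 ± 3.88 (SD, n = 3 each). The fall was 1.15 ± 0.16 (SE) on the log2 scale (adjusted p = 0.0105) and was called in all 11 alternative fits. Rps2 was the highest, with 150, 137 and 111 of 10000 in LC and 244, 237 and 234 in IP+LC. The rise of Rps2 was 0.85 ± 0.16 (adjusted p = 0.0165). It was called in all but 1 of the alternative fits, where the adjusted p was 0.102. With near-identical copies added, which held 21.3% of the UMIs of Rps2 and its copies, the rise was 0.85 (adjusted p = 0.0155).

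The other decreases on this scale were those of Rpl22l1, Rps14, Rps15, Rpl21, Rpl39 and Rps29. Rpl22l1 made up 11.6, 10.8 and 15.5 of 10000 in LC and 6.68, 7.01 and 6.34 in IP+LC (log2 fold change -0.92, adjusted p = 0.0315). Rps14 made up 338, 366 and 430 of 10000 in LC and 247, 243 and 243 in IP+LC (log2 fold change -0.63, adjusted p = 0.0303). Rpl39, a short protein of the exit tunnel, made up 106, 74.9 and 98.2 of 10000 in LC and 62.5, 66.3 and 67.6 in IP+LC (log2 fold change -0.51, adjusted p = 0.0902). In each the groups did not overlap. Rps29, a zinc-binding protein of the small subunit that the rule for named genes did not take and that is given because it was called, came to -0.48 on the log2 scale (adjusted p = 0.0676).

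The increases on this scale beside Rps2 were all of the large subunit. Rpl13 made up 268, 239 and 204 of 10000 in LC and 354, 350 and 344 in IP+LC, and it rose by 0.56 ± 0.15 (adjusted p = 0.0450). Rpl7a made up 114, 117 and 101 of 10000 in LC and 180, 161 and 159 in IP+LC, and it rose by 0.59 ± 0.15 (adjusted p = 0.0356). Rpl8, which lies near the catalytic center, made up 189, 194 and 186 of 10000 in LC and 281, 269 and 247 in IP+LC, and it rose by 0.49 ± 0.14 (adjusted p = 0.0496). In all 3 every IP+LC tumor lay above every LC tumor, LC replicate 1 included. Rplp0 rose by 0.43 (adjusted p = 0.0694) and Rpl7l1 by 0.62 (adjusted p = 0.0906). The other 4, named because they were called, were Rpl29, Rpl6, Rpl18 and Rpl12, which rose by 0.70, 0.47, 0.46 and 0.39.

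Most of the calls on this scale were lost in some of the 12 fits, the reported one included. Rps14 and Rpl22l1 were called in 9 of the 12, Rpl7a in 8, and Rpl7l1, Rpl39 and Rpl6 in 7. Rps15, Rpl21, Rps29, Rpl13, Rpl8, Rplp0, Rpl18 and Rpl29 were called in 6, and Rpl12 in 5. The highest adjusted p of these genes ran from 0.144 for Rpl22l1 to 0.299 for Rpl12, and each kept the sign of its fold change in all 12 fits.

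**Figure D4:**
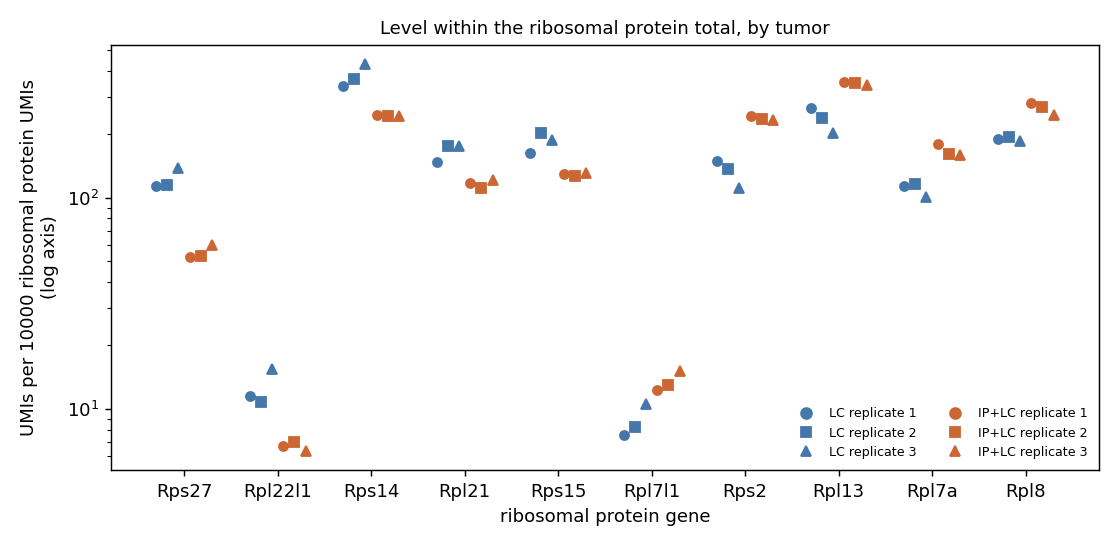
UMIs of 10 members per 10000 ribosomal protein UMIs in each tumor, on a log axis, with LC in blue and IP+LC in orange and 1 symbol for each replicate. The groups do not overlap for any of the 10, with Rps27, Rpl22l1, Rps14, Rpl21 and Rps15 lower and Rpl7l1, Rps2, Rpl13, Rpl7a and Rpl8 higher in IP+LC.

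Over the 79 members, the fold change on this scale went with transcript properties. It had a Pearson r of 0.25 with log2 transcript length and of 0.40 with GC content, and of -0.11 with log2 mean CPM. Among the 26 members of 334 to 560 nucleotides, the median was -0.10, with 1 called higher and 4 lower, and among the 27 of 802 to 3706 nucleotides it was 0.09, with 7 higher and 1 lower. Over all 11240 tested genes the log2 fold change had an r of 0.04 with length and of -0.01 with GC content. The members share libraries, so these are descriptions. With each library's trend with length and GC content removed, 11 members were higher and 8 lower, and 34.1% of all genes were called. Rps27 then fell by 1.12 (adjusted p = 0.00519) and Rps2 rose by 0.86 (adjusted p = 0.00809). That trend was fitted to all tested genes, so this fit does not take out the members' own relation to length and GC content.

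Small-subunit mRNAs made up less of the total against large-subunit mRNAs in every IP+LC tumor than in any LC tumor. The ratio of 40S to 60S UMIs was 0.816, 0.827 and 0.867 in LC and 0.757, 0.755 and 0.761 in IP+LC, with means of 0.836 ± 0.0267 and 0.758 ± 0.00315 (SD, n = 3 each). LC replicate 1 was the LC tumor nearest to IP+LC. The median log2 fold change was -0.18 for the 40S members and -0.04 for the 60S members, and on the scale of the member total -0.08 and 0.07. Without the 5 most abundant members, the difference in the ratio was -0.05 in place of -0.08. The ratio counts mRNA and says nothing of assembled subunits.

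Paralog pairs were set against each other within a tumor, so that the depth and the total of ribosomal protein mRNA cancel. Rps27l, which p53 is known to induce, made up 24.8%, 23.3% and 25.8% of the UMIs of Rps27l and Rps27 in LC and 39.3%, 41.3% and 40.3% in IP+LC, or 24.6% ± 1.27 against 40.3% ± 1.00 (SD, n = 3 each). Rps27l itself had 401, 230 and 322 CPM in LC and 252, 280 and 300 CPM in IP+LC, which overlapped (log2 fold change -0.19, adjusted p = 0.584), so the shift in the pair came with the fall of Rps27. With Rps27rt added to Rps27, the difference was 14.2 percentage points in place of 15.7. Rpl7l1 made up 5.38%, 4.72% and 6.03% of the UMIs of Rpl7l1 and Rpl7 in LC and 9.14%, 9.72% and 11.3% in IP+LC. Rpl7 had 1424, 1092 and 1108 CPM in LC and 908, 905 and 885 CPM in IP+LC (log2 fold change -0.42, adjusted p = 0.155). For both pairs the share was higher in every IP+LC tumor.

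The share of Rpl22l1 went the other way, with 11.1%, 10.8% and 13.7% of the UMIs of Rpl22l1 and Rpl22 in LC and 8.58%, 8.85% and 7.71% in IP+LC, again without overlap. Rpl36al, the paralog of Rpl36a, made up 6.53%, 7.63% and 7.43% of its pair in LC and 7.37%, 9.03% and 9.15% in IP+LC, which overlapped. The share of Rpl39l was at most 0.313% and that of Rpl3l at most 0.310% in any tumor, from 3 UMIs or fewer. The shares were not tested, since 3 against 3 tumors could not give an exact permutation p below 0.1. Rps4x, whose paralogs were not among the members, had 1717, 1029 and 975 CPM in LC and 1033, 995 and 959 CPM in IP+LC (log2 fold change -0.32, adjusted p = 0.397).

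**Figure D5:**
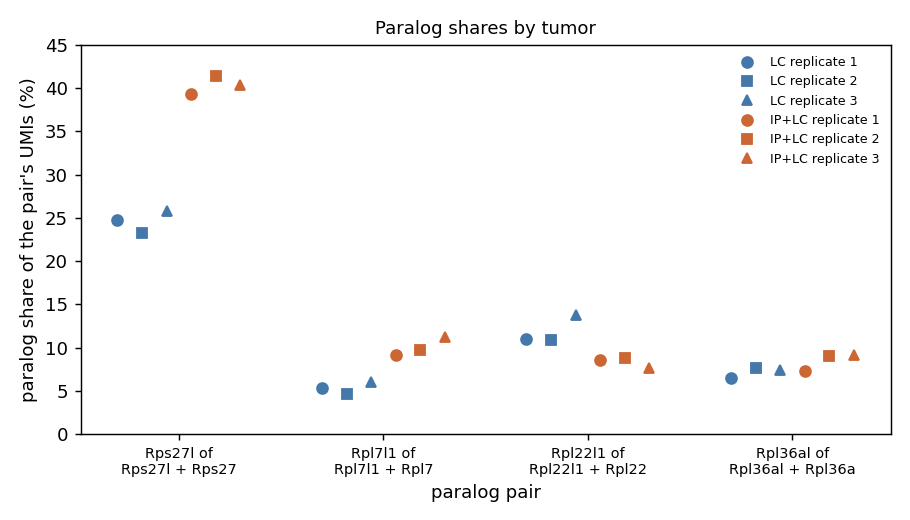
Share of the paralog in the UMIs of the paralog and its partner, in percent, in each tumor (LC blue, IP+LC orange, 1 symbol for each replicate). The Rps27l share sits between 23.3% and 25.8% in LC and between 39.3% and 41.3% in IP+LC, and the Rpl36al shares overlap.

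Rps3a1, Fau and Rack1, which the symbols left out, were not called against all genes. Rps3a1 had 1832, 1262 and 1260 CPM in LC and 1196, 1246 and 1236 CPM in IP+LC (log2 fold change -0.24, adjusted p = 0.456), and Fau had 1026, 657 and 719 CPM in LC and 761, 825 and 796 CPM in IP+LC (log2 fold change -0.01, adjusted p = 0.982). Rack1, a scaffold on the small subunit, had 2349, 1682 and 1553 CPM in LC and 2504, 2436 and 2447 CPM in IP+LC. Its groups did not overlap, and it was not called against all genes (log2 fold change 0.40, adjusted p = 0.233) but was called relative to the member total (0.49, adjusted p = 0.0485).

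Of 20 other mRNAs known to carry a TOP start, which code for translation factors and related proteins, 6 rose and 1 fell, with a median log2 fold change of 0.21. The share called was close to the 36.4% of all tested genes. Pabpc1, the cytoplasmic poly(A)-binding protein, had 541, 585 and 616 CPM in LC and 1837, 1847 and 1480 CPM in IP+LC, and it rose by 1.57 ± 0.21 (adjusted p = 0.00149). Hnrnpa1 rose by 0.79 (adjusted p = 0.0185), and Eif4a2, an RNA helicase of initiation, fell by 0.97 (adjusted p = 0.0158). For both, each IP+LC tumor lay outside the range of LC. The 6 became 13 without LC replicate 1, where 28.3% of all genes were called higher, and 3 with any other single tumor left out, where 7.61% to 11.2% were. Of 8 TOP host RNAs of snoRNAs, edgeR, DESeq2 and limma voom called 0, and 0 had an unadjusted p below 0.05 in edgeR. The smallest adjusted p were those of Snhg5 (0.157), Snhg8 (0.232) and Epb41l4aos (0.272).

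The mitochondrial ribosome, whose proteins are also encoded in the nucleus, served as the other set of ribosomal proteins. Of 78 genes, 75 were tested, 7 rose and 4 fell, with a median log2 fold change of 0.15, where 16.8% of all tested genes rose and 19.6% fell. Mrpl45 had 46.5, 36.8 and 35.6 CPM in LC and 67.4, 77.6 and 71.9 CPM in IP+LC, and it rose by 0.89 ± 0.20 (adjusted p = 0.0133). Mrpl38 rose by 0.76 (adjusted p = 0.0219) and Mrpl9 by 0.81 (adjusted p = 0.0241), both without overlap. Summed over the 78 genes, the share of UMIs was 0.539%, 0.350% and 0.317% in LC and 0.480%, 0.475% and 0.475% in IP+LC, with LC replicate 1 again above all others. Without LC replicate 1, 32 were called higher and 4 lower, where 28.3% and 28.7% of all genes were. With any other single tumor left out, 2 to 4 were called higher and 0 to 3 lower, where 7.61% to 11.2% of all genes were called higher and 11.6% to 15.5% lower.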

How the data were processed

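RNA was measured by bulk RNA barcoding and sequencing in 3 LC and 3 IP+LC tumors. The deposited values were raw counts of UMIs (10 nucleotides) per gene. Per the labels and methods, the authors used UMI-tools 1.1.1 (unique method), Trim Galore 0.6.7, HISAT2 2.2.1 on GRCm38 and featureCounts 2.0.1. Strand setting and annotation release are not given in the sources used here, so members and overlapping or antisense genes cannot be told apart. In R 4.3.3, edgeR 4.0.16 kept 11240 genes (filterByExpr, minimum count 10, minimum total 15, 3 libraries), scaled by TMM and compared the groups by its quasi-likelihood test, adjusted over all genes, with a limit of 0.1. A second fit used the summed member UMIs as library size. CPM values of single genes are per 1000000 UMIs of the tested genes after TMM scaling, and shares, ranks and summed marker CPM are per UMIs of the whole library. The procedure was tested on simulated data. Lengths and near-identical copies came from GENCODE M21 and blastn 2.17.0+ (at least 81 nucleotides, 95% identity, and 80% of the member for a copy whose UMIs were added). Nothing says the mice were handled as separate batches, and p-values measure the spread between these tumors. Members and lists were chosen with earlier results of these data known.

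Values are given for the 5 most abundant members, called members without overlap (up to 10 each way), paralogs and their partners, Rplp0, Rplp1, Rplp2, Rpsa, Rps19, Rpl5, Rpl11, Rps6, the 8 with the smallest p relative to the total, ribosomal proteins outside the symbol rule, and 3 genes of each other list. Some genes that this rule takes are not reported here. Alternatives covered scaling (also by DESeq2 1.42.0 size factors), filters, tests (DESeq2, limma 3.58.1 voom), a replicate block, thinning, a length and GC trend and each tumor left out. Adding near-identical copies, removing the trend in the relative fit, and the overlap of groups without TMM scaling were chosen after seeing the data.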

Additional observations from a re-analysis of the deposited data

How the results depend on the processing

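Counts of members higher in IP+LC moved from 1 to 2 with DESeq2's size factors, library size only, no filter, at least 10 UMIs in every library, limma voom, robust edgeR and near-identical copies added, to 0 with upper quartile scaling, an adjusted p below 0.05 and thinning, and to 9 with the length and GC trend removed. They ran from 0 to 31 with 1 tumor left out. Counts of members lower moved from 5 to 2 with library size only and no filter, and to 3 with an adjusted p below 0.05, and ran from 2 to 7 with 1 tumor left out. With the replicate number as a block, 0 were higher and 2 lower (30.3% of all genes called) and 5 differed relative to the member total (16.7%). Deviations of same-numbered tumors correlated at 0.02, -0.11 and 0.10, against means of -0.007, 0.05 and -0.05 with the other numbers. With 3 tumors in each group, these values cannot exclude that the numbers pair the tumors. The count relative to the member total ran from 1 to 39 with 1 tumor left out. Mitochondrial ribosomal protein genes called higher went from 7 to 11 with library size only and from 2 to 32 with 1 tumor left out, and those lower from 0 to 4. Other TOP mRNAs called higher ran from 3 to 13. With copies added, the rise of the Rps27l share was 14.2 percentage points. The difference in the member share ran from -0.60 to 1.74 percentage points with 1 tumor left out. Among 49 single genes, 889 of 979 values kept their side of the limit, 58 lost and 32 gained a call. Of the 889, 32 had another sign and were uncalled in both fits. The causes were not tested. Thinning every library to the 592733 UMIs of LC replicate 1 left the difference in the member share at 0.22 percentage points. Random thinning keeps shares the same but for sampling noise, so this value cannot show whether depth mattered.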

Other observations

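Genes were also counted for proteins that act on TOP mRNAs, on new ribosomal proteins or on stalled ribosomes, where 36.4% of all tested genes were called. Of 7 proteins that bind TOP mRNAs, 2 rose. Larp1, which binds the TOP motif, had 58.5, 63.5 and 67.8 CPM in the LC tumors and 207, 211 and 173 CPM in the IP+LC tumors, and it rose by 1.63 ± 0.20 (SE) on the log2 scale (edgeR, adjusted p = 0.00120). Every IP+LC tumor lay above every LC tumor, and LC replicate 1 was the lowest of the LC tumors, unlike for the ribosomal proteins. Larp4, which binds poly(A) tails, rose by 0.51 (adjusted p = 0.0778), while Larp1b came to 0.29 (adjusted p = 0.403).

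Of 11 tested genes for the rescue and quality control of ribosomes, 2 rose. Usp10, a deubiquitinase that acts on small-subunit proteins, had 29.3, 29.8 and 28.8 CPM in LC and 84.1, 64.2 and 58.8 CPM in IP+LC, and it rose by 1.23 ± 0.22 (adjusted p = 0.00503). Abce1, the ATPase that splits ribosomes for recycling, had 70.6, 76.0 and 63.6 CPM in LC and 137, 132 and 119 CPM in IP+LC, and it rose by 0.89 ± 0.19 (adjusted p = 0.0103). Both stood clear of the LC tumors in each of the 3 IP+LC tumors. Edf1, a sensor of collided ribosomes, came to 0.39 (adjusted p = 0.313). Of 5 tested chaperones of single ribosomal proteins, Heatr3, an import factor of Rpl5, rose by 0.68 (adjusted p = 0.0833), and Grwd1, the chaperone of Rpl3, and Bccip, the chaperone of Rpl23, came to 1.00 (adjusted p = 0.170) and 0.26 (adjusted p = 0.442). These lists were chosen with results of these data known.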
